A study of Homo sapiens with 8 samples.

Results

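The difference between the responses of MIA PaCa-2 and Capan-1 cells to HOXB7 siRNA was measured, gene by gene, on all 8 arrays of the series. For each gene the change of siRNA-treated against parental cells in Capan-1 was subtracted from the same change in MIA PaCa-2, so that a value above 0 means a higher response in MIA PaCa-2 and a value below 0 a higher response in Capan-1. A probe entered when its spots were well above background on all 8 arrays, and 20376 of 34127 gene probes did, standing for 16553 of 27233 genes, of which 13974 carried a gene symbol. MIA PaCa-2 is a pancreatic ductal adenocarcinoma line from a primary tumor, and Capan-1 is one from a hepatic metastasis. Each line gave 2 arrays of parental cells and 2 of cells that had received HOXB7 siRNA at 10 nM 48 h earlier, which makes 4 groups of 2. Parental cells had no siRNA and no scrambled duplex, so the transfection itself is part of each response, and the labels do not say which HOXB7 duplex was used. The lines were grown in different media, and each group stands for 1 line, so that a difference between them is one between these lines under these conditions. The labels do not say whether the 2 arrays of a group came from separate cultures, so the p-values measure only the spread between these arrays, which may be technical.

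The sensors RIG-I, MDA5 (gene IFIH1), LGP2 (gene DHX58) and TLR3 recognise double-stranded RNA, their signals drive interferon and chemokine genes through IRF and NF-kB factors, and secreted interferon then raises a broad set of antiviral genes through the interferon-stimulated response element (ISRE) in their promoters. The integrated stress response is a separate pathway, in which phosphorylated eIF2 alpha favours translation of the transcription factor ATF4, and ATF4 in turn raises genes of amino acid synthesis and transport. NRF2 is the transcription factor of the antioxidant response, and BACH1 and KEAP1 hold its activity down.

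The arrays were of similar quality. Between 69.2% and 74.3% of the spots were well above background on each array, the log2 intensity at the 75th percentile lay between 7.95 and 8.36, and 0 gene spots were saturated. HOXB7, the siRNA target, had parental levels of -4.82 and -4.10 and siRNA levels of -7.77 and -7.78 in MIA PaCa-2, where a level is the log2 intensity relative to the array's 75th percentile. In Capan-1 HOXB7 had parental levels of -2.48 and -2.34 and siRNA levels of -5.27 and -4.80. The siRNA arrays of both lines thus lay below their parental arrays without overlap. HOXB7 was not well above background on either siRNA array of MIA PaCa-2, so it is not among the genes compared here. Against the dimmest measured probes of those arrays it was at least 3.16-fold lower. The log2 change was -2.62 in Capan-1 and, with siRNA arrays at background, -3.32 in MIA PaCa-2. By PCR the study reported deeper silencing in MIA PaCa-2 than in Capan-1. Unequal silencing and a difference between the lines cannot be told apart here. The keratins KRT7, KRT8, KRT18 and KRT19, which mark epithelial cells, were above background on all 8 arrays, whereas the epithelial adhesion genes EPCAM and CDH1 were above background only on the 4 Capan-1 arrays. None of the 6 fibroblast markers was above background on every array, but this does not mean that they were absent. COL1A2 was bright in MIA PaCa-2, with levels between 3.8 and 3.95, and COL3A1 was above background on the 4 MIA PaCa-2 arrays only. COL1A1, COL1A2 and a probe of DCN were above background on 7 arrays. Of the 6 immune markers, 5 were in the fit, and 1 of them, the lysosomal gene CD68, had a difference of 0.66 at an unadjusted p of 0.0034 (limma). Slides held 1 line each, siRNA arrays first at positions 1 and 2, so that position and treatment cannot be told apart, while a shift that is the same for all arrays of a slide cancels in the difference.

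The responses of the lines were related but far from alike. Across the 16553 genes the log2 changes of MIA PaCa-2 and Capan-1 had a Pearson correlation of 0.306 and a Spearman correlation of 0.332, which describes genes and not independent replicates. The SD over genes was 0.297 for the response of MIA PaCa-2, 0.235 for that of Capan-1 and 0.318 for their difference, with a median standard error of 0.159 per gene. Tested with limma at a Benjamini-Hochberg adjusted p under 0.05, 3 genes had a higher response in MIA PaCa-2 (0.0181% of those tested) and 4 a higher response in Capan-1 (0.0242%). The 3 were IFI27, MAGI1 and LINC02817, and the 4 were CCL3, IFIT1, NMRAL2P and OASL. At an unadjusted p under 0.05, counting a gene by any of its probes, 1270 genes (7.67%) were higher and 1084 (6.55%) lower, and by the brightest probe alone, which stands for a gene in every list below, 1081 (6.53%) and 968 (5.85%). Of the 2 lines taken alone, MIA PaCa-2 had 424 genes that rose (2.56%) and 530 that fell (3.2%), and Capan-1 had 3 that rose (0.0181%) and 2 that fell (0.0121%) at the adjusted threshold. The 3 genes that rose in Capan-1 were CCL3, IFIT1 and RSAD2.

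The adjusted p of all 7 genes was 0.0483, close to the threshold, and the calls turned on single settings. With quantile scaling of the same values 0 genes passed in limma (lowest adjusted p 0.0521, and at an unadjusted p under 0.05 1187 probes higher and 1305 lower), and leaving out any 1 of the 4 parental arrays also gave 0 (limma, with 928 to 1641 probes higher and 715 to 1552 lower at the unadjusted threshold). The direction of all 7 genes was the same under each of the 22 settings.

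**Figure D1:**
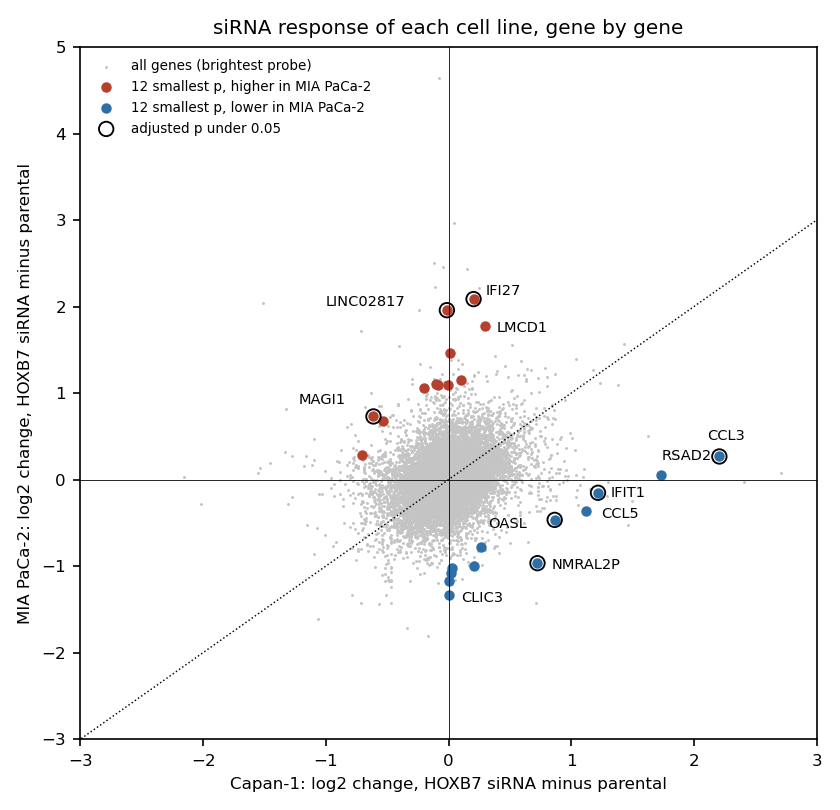
Log2 change of each of the 16553 genes after HOXB7 siRNA in Capan-1 (x axis) and MIA PaCa-2 (y axis), each point 1 gene by its brightest probe, with the 12 genes of smallest p in each direction in color and the 7 past the adjusted threshold circled. The blue genes CCL3, RSAD2 and IFIT1 lie to the right near 0 on the y axis, IFI27 and LINC02817 lie at the top near 0 on the x axis, and OASL, NMRAL2P and MAGI1 lie in the quadrants where the lines moved in opposite directions.

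The genes that parted the lines included a set of antiviral genes, so their promoters were read from RefSeq (GRCh38.p14) for the letters of an ISRE. The letters searched were GAAA, any 2 bases and GAAA again (TTTC, any 2 bases and TTTC on the other strand), on both strands in the 250 bases before each start listed for a gene, with overlapping matches kept. They occurred in 1014 of the 27305 genes of the table (3.71%) and in 365 of the 10943 genes in the fit with an entry (3.335%). Among interferon-stimulated genes in the fit, 24 of 41 with an entry held them (58.5%), including 10 of 10 whose response was lower in MIA PaCa-2 at an unadjusted p under 0.05, 3 of 4 whose response was higher, and 11 of the other 27 (40.7%). The windows of IFIT1, ISG15, RSAD2 and IFI27 are printed because their genes lead the antiviral difference in either direction, 5′ to 3′ on the strand of the gene, with the matching letters in capitals.
IFIT1, chr10:89392373-89392622, plus strand: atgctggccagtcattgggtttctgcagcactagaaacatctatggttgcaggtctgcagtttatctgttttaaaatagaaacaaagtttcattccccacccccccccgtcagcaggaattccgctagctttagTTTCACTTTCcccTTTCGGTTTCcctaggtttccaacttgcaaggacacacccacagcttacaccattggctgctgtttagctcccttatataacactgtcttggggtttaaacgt
ISG15, chr1:1013247-1013496, plus strand: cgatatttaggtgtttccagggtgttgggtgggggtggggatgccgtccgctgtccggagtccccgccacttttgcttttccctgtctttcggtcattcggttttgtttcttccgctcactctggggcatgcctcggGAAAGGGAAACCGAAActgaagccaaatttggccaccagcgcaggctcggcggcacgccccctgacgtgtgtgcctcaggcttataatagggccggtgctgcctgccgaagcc
RSAD2, chr2:6877527-6877776, plus strand: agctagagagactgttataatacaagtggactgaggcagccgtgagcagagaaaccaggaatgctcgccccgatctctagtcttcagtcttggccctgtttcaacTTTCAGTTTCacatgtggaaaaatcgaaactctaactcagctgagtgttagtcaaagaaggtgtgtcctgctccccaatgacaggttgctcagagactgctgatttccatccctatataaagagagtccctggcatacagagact
IFI27, chr14:94110486-94110735, plus strand: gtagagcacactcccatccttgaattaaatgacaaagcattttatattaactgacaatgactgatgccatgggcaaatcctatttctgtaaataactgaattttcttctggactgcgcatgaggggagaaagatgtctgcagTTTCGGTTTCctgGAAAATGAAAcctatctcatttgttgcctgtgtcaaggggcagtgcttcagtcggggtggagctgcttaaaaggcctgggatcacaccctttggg

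In IFIT1 a pair of matches on the reverse strand began 116 and 103 bases before the start, in ISG15 a pair of overlapping matches began 113 and 107 bases before it, in RSAD2 a single match began 145 bases before it, and in IFI27 matches on opposite strands began 108 and 95 bases before it. IFI27, higher in MIA PaCa-2, and the genes that were lower there thus shared these letters. A match describes the sequence and is no evidence of binding. The table holds no entry for OASL and CCL5.

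IFIT1, whose protein binds viral RNA that lacks the host cap, had siRNA levels of 4.28 and 4.16 and parental levels of 4.36 and 4.38 in MIA PaCa-2. In Capan-1 IFIT1 had siRNA levels of 2.38 and 2.48 and parental levels of 1.20 and 1.23. It was thus among the brighter genes of MIA PaCa-2 before and after siRNA, and rose only in Capan-1, where it was 2.33-fold higher (log2 change 1.22, limma adjusted p = 0.0236), against -0.15 (adjusted p = 0.322) in MIA PaCa-2. The difference between the lines was -1.37 (standard error 0.12, 95% interval -1.66 to -1.09, limma adjusted p = 0.0483). In RNA of a whole culture, fewer cells that express a gene and less RNA per cell cannot be told apart. The probe lies at chr10:91153418-91153477 (hg18, the build of the array's annotation).

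OASL, a catalytically inactive relative of the oligoadenylate synthetases that enhances RIG-I signalling, moved in opposite directions. Its levels in MIA PaCa-2 were 2.22 and 2.31 (siRNA) and 2.77 and 2.69 (parental), and in Capan-1 they were 2.44 and 2.52 against 1.58 and 1.65. The siRNA arrays lay below both parental arrays in MIA PaCa-2 and above both in Capan-1. OASL fell by 0.47 on the log2 scale in MIA PaCa-2 (limma adjusted p = 0.0336), and its change of 0.86 in Capan-1 did not pass (adjusted p = 0.056), with a difference of -1.33 (standard error 0.12, adjusted p = 0.0483). Its probe lies at chr12:119942703-119942762 (hg18).

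Other antiviral genes gave values of the same sign with adjusted p above the threshold. RSAD2 encodes viperin, which makes a chain-terminating nucleotide. It had levels of -2.52 and -2.81 (siRNA) and -2.57 and -2.87 (parental) in MIA PaCa-2, and of -1.84 and -1.89 against -3.58 and -3.61 in Capan-1. The MIA PaCa-2 arrays of RSAD2 overlapped, whereas in Capan-1 it rose 3.32-fold (log2 change 1.73, limma adjusted p = 0.0336), and the difference was -1.68 (adjusted p = 0.0658). ISG15, a ubiquitin-like protein that is conjugated to targets during infection, had levels of 4.72 and 4.67 (siRNA) and 5.02 and 5.02 (parental) in MIA PaCa-2, and of 4.31 and 4.58 against 3.69 and 3.67 in Capan-1, a difference of -1.09 (adjusted p = 0.107). The difference of IFIT3 was -0.88 (adjusted p = 0.0984), from a change of -0.07 in MIA PaCa-2 against 0.81 in Capan-1. For IFIT2 it was -1.17 (adjusted p = 0.11) and for HERC5, the ligase that attaches ISG15, -0.85 (adjusted p = 0.11).

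The list of interferon-stimulated genes held 60 genes, of which 53 were in the fit, and it was mixed rather than uniform. The difference was below 0 in 33 and above 0 in 20, and at an unadjusted p under 0.05 it was lower in 13 (24.5%) and higher in 5 (9.43%), against 5.85% and 6.53% of all genes. The median difference was -0.16, against 0.00 over all genes. By role, all 4 IFIT genes lay below 0 with a median of -1.03, and 4 of 5 genes of ISG15 and its conjugation lay below 0 with a median of -0.25, whereas the 4 oligoadenylate synthetase genes had a median of 0.17. In 10 of the 53 genes (18.9%) the siRNA arrays lay below both parental arrays in MIA PaCa-2 and above both in Capan-1, against 3.79% of all genes. The 13 genes lower in MIA PaCa-2 were RSAD2, IFIT1, OASL, IFIT2, ISG15, IFI44 (-1.03), IFIT3, HERC5, DDX60 (-0.73), RTP4 (-0.58), IFITM2 (-0.40), NMI (-0.38) and ISG20 (-0.36).

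These 13 genes did not start from the same level in the lines. In parental cells 8 of the 13 were higher in MIA PaCa-2, and after siRNA 5 were. For IFIT1 the level in MIA PaCa-2 exceeded that in Capan-1 by 3.16 on the log2 scale in parental cells and by 1.79 after siRNA, for IFIT3 by 1.37 and 0.49, and for ISG15 by 1.34 and 0.25. For OASL the excess of 1.12 in parental cells became -0.21, for RSAD2 0.88 became -0.80, and for the sensor DHX58 0.55 became -0.48. The lines therefore lay closer together after siRNA in IFIT1, IFIT3 and ISG15, and in OASL, RSAD2 and DHX58 their order was turned.

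**Figure D2:**
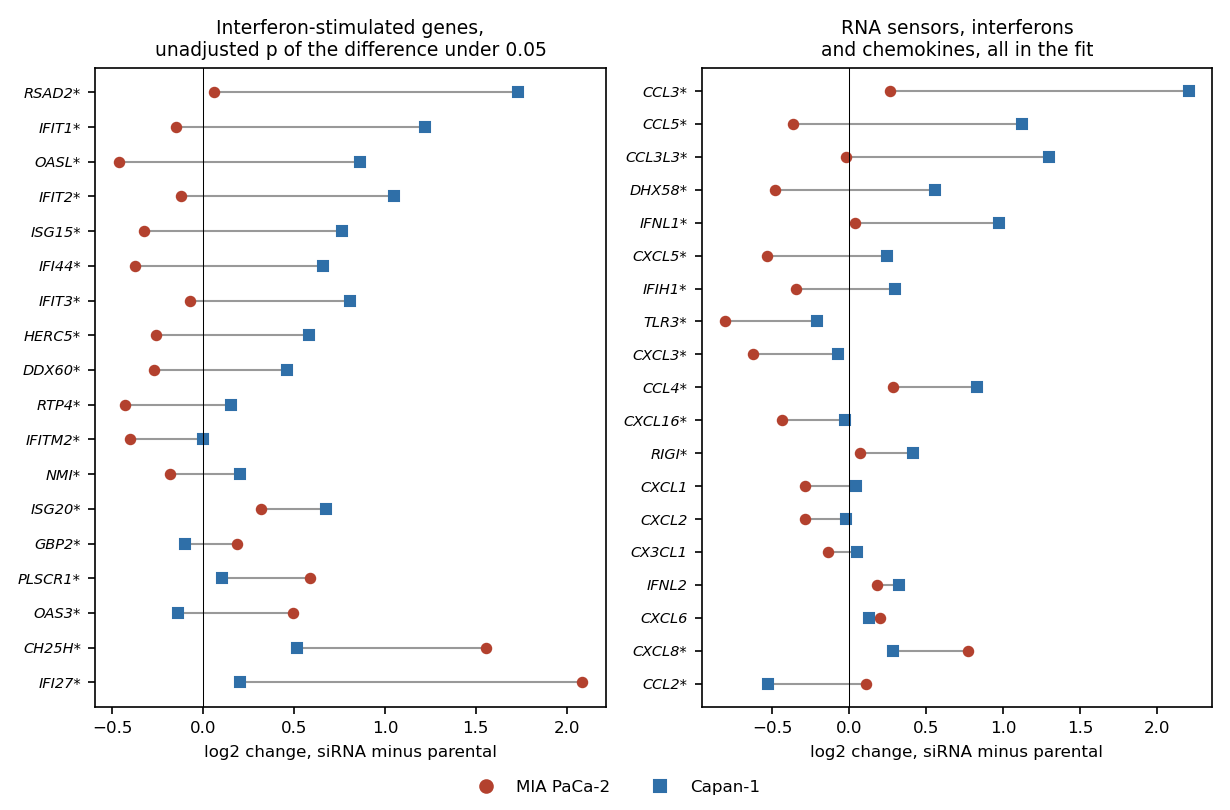
Log2 change after HOXB7 siRNA in MIA PaCa-2 (circles) and Capan-1 (squares), x axis, for the 18 interferon-stimulated genes with an unadjusted p of the difference under 0.05 (left) and for RNA sensors, interferons and chemokines (right), where a star marks an unadjusted p under 0.05. Squares lie right of circles from RSAD2 down to ISG20, and the order is turned for GBP2, PLSCR1, OAS3, CH25H and IFI27.

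IFI27, an interferon-induced protein of mitochondrial membranes, was the gene with the smallest p of all and went against the antiviral genes above. Its levels in MIA PaCa-2 were 0.15 and 0.16 (siRNA) and -1.98 and -1.88 (parental), and in Capan-1 they were 3.32 and 3.25 against 3.17 and 2.98. It thus rose 4.25-fold in MIA PaCa-2 (log2 change 2.09, limma adjusted p = 0.00263) from a level far below that of Capan-1, where the fold was 1.15 (adjusted p = 0.365). The difference was 1.88 (standard error 0.13, 95% interval 1.57 to 2.20, limma adjusted p = 0.0483), and after siRNA its level in MIA PaCa-2 was still lower than that in Capan-1, with a gap of -3.12. The probe lies at chr14:93652720-93652779 (hg18). The other interferon-stimulated genes with a higher response in MIA PaCa-2 at an unadjusted p under 0.05 were CH25H, which makes 25-hydroxycholesterol, with a difference of 1.04, OAS3 with 0.63, PLSCR1 with 0.48 and GBP2 with 0.29. CH25H and OAS3 rose in MIA PaCa-2 at an adjusted p of 0.00821 and 0.0425 (limma).

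Upstream of these genes, all 4 RNA sensors in the fit had a lower response in MIA PaCa-2 at an unadjusted p under 0.05 (limma), with a median of -0.62. Over all genes 5.85% did. DHX58 had levels of 0.64 and 0.50 (siRNA) and 1.04 and 1.06 (parental) in MIA PaCa-2, and of 1.08 and 1.02 against 0.61 and 0.38 in Capan-1, so its arrays parted in opposite directions, with a difference of -1.04 (limma adjusted p = 0.11). IFIH1 had a difference of -0.65, TLR3 of -0.60 and RIGI of -0.35. The difference of TLR3, which was dim in MIA PaCa-2, ranged from -0.75 to -0.08 over the 22 settings. TLR3 fell by 0.81 in MIA PaCa-2 (adjusted p = 0.0179), whereas its change in Capan-1 was -0.21. IFNL1, a type III interferon, had levels of -3.29 and -3.39 against -3.24 and -3.52 in MIA PaCa-2, and of -2.15 and -2.26 against -3.21 and -3.14 in Capan-1. It was separated only in Capan-1, with a difference of -0.93 (adjusted p = 0.123). Of the 6 interferon genes listed, IFNL1 and IFNL2 alone were in the fit.

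The signalling proteins between sensor and target showed less. Of 9 interferon receptor and JAK kinase genes, 0 had an unadjusted p under 0.05 (limma), and their median was 0.13, and 0 of 7 adaptors and kinases did. Among 7 transcription factors of the pathway, IRF7 had a difference of 0.86 (limma unadjusted p = 0.0147) from levels far below those of Capan-1, and IRF5 one of -0.30. The difference of IRF7 ranged from 0.19 to 1.09 over the 22 settings. IRF9, a subunit of the factor that binds the ISRE, had -0.47 (unadjusted p = 0.0617). Over the 32 genes of RNA sensing and interferon signalling in the fit, 21 lay below 0 and 11 above, with a median of -0.13. At an unadjusted p under 0.05 (limma) 1 was higher (3.125%) and 6 lower (18.8%), against 6.53% and 5.85% of all genes.

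CCL3, a chemokine (MIP-1 alpha) that attracts monocytes and lymphocytes, had the largest called difference towards Capan-1. Its levels in MIA PaCa-2 were -4.31 and -4.29 (siRNA) and -4.64 and -4.50 (parental), near the dim end of the genes measured, and in Capan-1 they were 1.79 and 2.04 against -0.21 and -0.37. In Capan-1 CCL3 rose 4.62-fold (log2 change 2.21, limma adjusted p = 0.00766), against 1.2-fold in MIA PaCa-2 (adjusted p = 0.225). The difference was -1.94 (standard error 0.17, 95% interval -2.33 to -1.55, limma adjusted p = 0.0483). The probe lies at chr17:31439718-31439777 (hg18). CCL3L3 is a near-identical copy of CCL3 and had a difference of -1.32 (adjusted p = 0.0984), and their probes may bind each other's transcripts.

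CCL5, the chemokine RANTES, had levels of -0.27 and -0.32 (siRNA) and 0.23 and -0.08 (parental) in MIA PaCa-2, and of 1.67 and 1.63 against 0.54 and 0.52 in Capan-1. The siRNA arrays of CCL5 lay below both parental arrays in MIA PaCa-2 and above both in Capan-1, with a difference of -1.49 (limma adjusted p = 0.053) and changes of -0.37 and 1.12. TNFSF10 encodes the death ligand TRAIL. It fell in MIA PaCa-2 (limma adjusted p = 0.00821) and changed by 0.21 in Capan-1 (adjusted p = 0.351), a difference of -1.21 (adjusted p = 0.0551), and its second probe gave -0.93. Of 5 CC chemokines in the fit, CCL3, CCL5, CCL3L3 and CCL4 (-0.55) were lower in MIA PaCa-2 at an unadjusted p under 0.05 (limma). CCL2 was higher (0.63), and the median of the 5 was -1.32. CCL2 was dim in MIA PaCa-2, at levels between -5.66 and -5.39. Its log2 change was 0.11 there and -0.53 in Capan-1. The neutrophil attractants divided, with differences of -0.55 for CXCL3 and -0.78 for CXCL5, whereas CXCL8 had 0.48 and rose in MIA PaCa-2 (log2 change 0.77, adjusted p = 0.0171).

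Over the 42 genes of chemokines, cytokines and NF-kB targets in the fit, of 55 listed, the median was -0.05. At an unadjusted p under 0.05 (limma) 2 were higher (4.76%) and 10 lower (23.8%), against 6.53% and 5.85% of all genes. The 10 subunits and inhibitors of NF-kB had 0 genes at an unadjusted p under 0.05 (limma) and a median of -0.03. The 10 lower genes comprised 4 of the 5 CC chemokines, 3 of 8 CXC and CX3C chemokines and 3 of 10 cytokines in the fit.

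**Figure D3:**
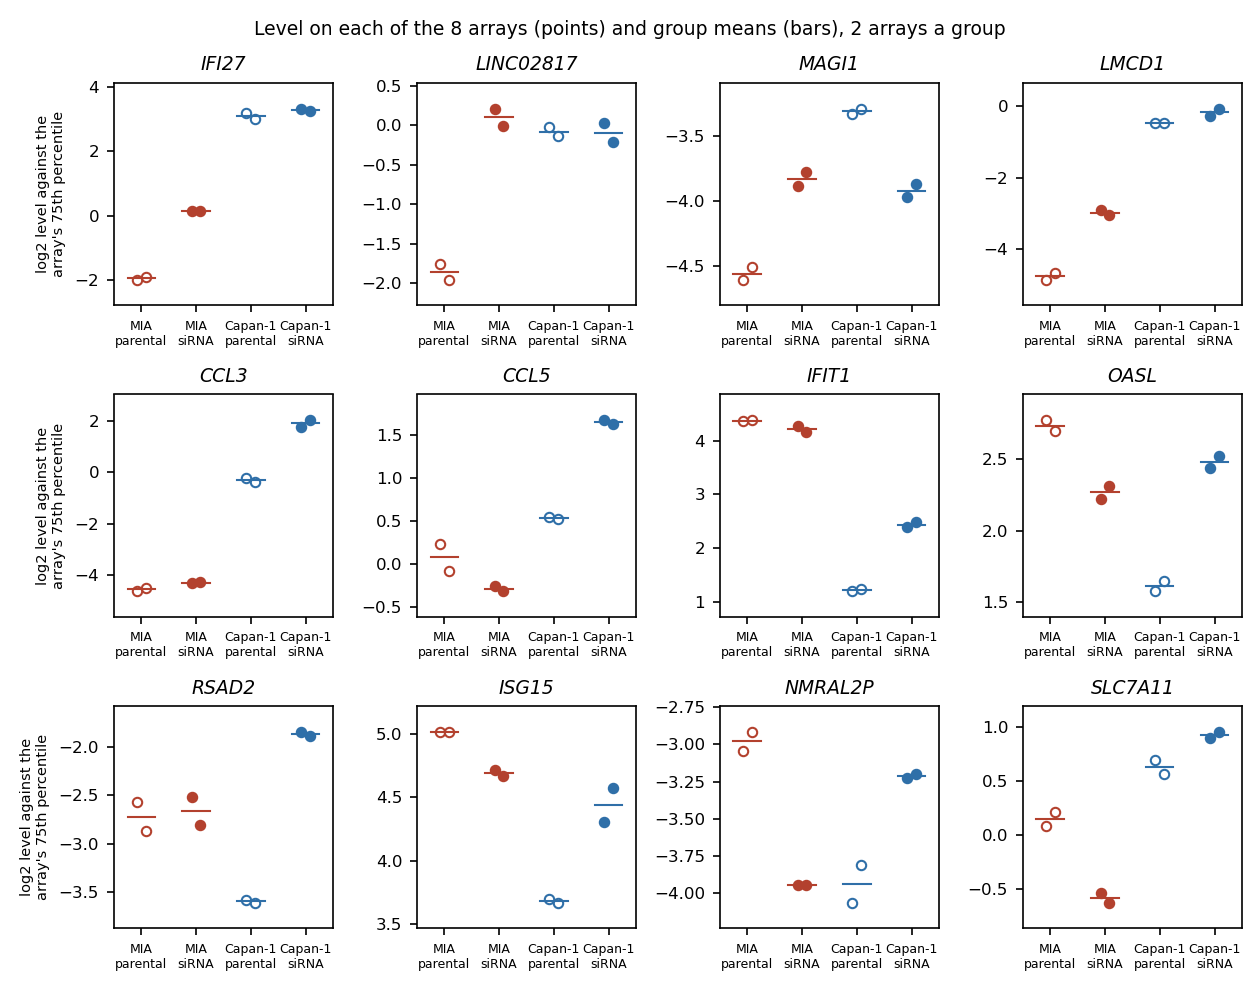
Level of 12 genes (y axis, log2 intensity against the array's 75th percentile) on each of the 8 arrays, 2 points a group with the group mean as a bar, open for parental and filled for siRNA-treated cells of MIA PaCa-2 (red) and Capan-1 (blue). IFIT1 is between 4.16 and 4.38 on the 4 MIA PaCa-2 arrays and separated in Capan-1 (1.20 and 1.23 against 2.38 and 2.48), whereas LINC02817 stands apart in parental MIA PaCa-2 cells only, at -1.76 and -1.96.

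The other 3 called genes lay outside these pathways. LINC02817, a long noncoding RNA, had levels of 0.21 and -0.01 (siRNA) and -1.76 and -1.96 (parental) in MIA PaCa-2, and of 0.03 and -0.22 against -0.02 and -0.14 in Capan-1. It rose 3.88-fold in MIA PaCa-2 (log2 change 1.96, limma adjusted p = 0.00692), to the level that Capan-1 had on all 4 arrays, with a difference of 1.97 (standard error 0.18, 95% interval 1.53 to 2.41, adjusted p = 0.0483) at chr1:219569893-219569952 (hg18). NMRAL2P, a pseudogene known as a transcriptional target of NRF2, moved in opposite directions. It had levels of -3.94 and -3.94 (siRNA) and -3.04 and -2.91 (parental) in MIA PaCa-2, and of -3.22 and -3.20 against -4.06 and -3.81 in Capan-1. NMRAL2P fell in MIA PaCa-2 (log2 change -0.97, limma adjusted p = 0.012) and changed by 0.72 in Capan-1 (adjusted p = 0.0819), a difference of -1.69 (standard error 0.15, adjusted p = 0.0483) at chr3:187181236-187181295 (hg18). MAGI1, a scaffold protein of tight junctions, was the mirror of it, with levels of -3.88 and -3.77 (siRNA) and -4.61 and -4.51 (parental) in MIA PaCa-2, and of -3.97 and -3.87 against -3.33 and -3.29 in Capan-1. Its difference was 1.34 (standard error 0.12, adjusted p = 0.0483) by the probe at chr3:65314988-65315047 (hg18), but only 0.12 (unadjusted p = 0.445) by its other probe, so the gene as a whole is uncertain. With normexp background correction and quantile scaling the first probe gave 0.35 (adjusted p = 0.207), and NMRAL2P gave -0.59.

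Several of the next genes by p, though not all of them, changed in MIA PaCa-2 and had changes near 0 in Capan-1. CLIC3, a chloride intracellular channel protein, had levels of -1.16 and -1.05 (siRNA) and 0.21 and 0.26 (parental) in MIA PaCa-2, and of -0.94 and -0.90 against -1.04 and -0.81 in Capan-1. CLIC3 fell in MIA PaCa-2 (log2 change -1.34, limma adjusted p = 0.00692), changed by 0.00 in Capan-1 and had a difference of -1.34 (adjusted p = 0.053). The muscle enolase ENO3 (-1.10), the retinol carrier RBP4 (-1.05) and the receptor NPSR1 (-1.18) also had differences at a limma adjusted p of 0.053. All fell in MIA PaCa-2, with changes between 0.00 and 0.03 in Capan-1. Over the 22 settings the difference ranged from -1.11 to -0.45 for RBP4 and from -1.34 to -0.31 for NPSR1. MLLT11 likewise fell in MIA PaCa-2 (-0.78, adjusted p = 0.00948) but had a change of 0.26 in Capan-1 (adjusted p = 0.229), where its siRNA arrays lay above both parental arrays, a difference of -1.04 (adjusted p = 0.053). On the other side LMCD1, a LIM domain regulator of transcription, had levels of -2.91 and -3.05 against -4.86 and -4.66 in MIA PaCa-2 and rose there (log2 change 1.78, adjusted p = 0.00565), against a change of 0.29 in Capan-1, a difference of 1.49 (adjusted p = 0.053). With normexp background correction and quantile scaling it was 0.16. The complement inhibitor CD59 (1.05), the adhesion receptor ADGRG1 (1.09) and the Wnt ligand WNT7B (1.20) rose in MIA PaCa-2. They had differences at a limma adjusted p of 0.0984, 0.0984 and 0.11. CD59 ranged from 0.46 to 1.13 over the 22 settings, and WNT7B was 0.19 with normexp correction and quantile scaling together. LOC145845 (1.45, adjusted p = 0.053), SOBP (1.26, adjusted p = 0.0559) and PHETA2 (1.18, adjusted p = 0.11) also rose in MIA PaCa-2, and with that correction and scaling they gave 0.84, 0.49 and 0.54. TMC4 rose in MIA PaCa-2 (log2 change 0.68, adjusted p = 0.0262) and had a change of -0.53 in Capan-1 (adjusted p = 0.152), a difference of 1.22 (adjusted p = 0.0984). HEG1 had changes of 0.28 and -0.70 and a difference of 0.98 (adjusted p = 0.0984).

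The ATF4 targets parted the lines in 1 direction. SLC7A11, the cystine transporter subunit xCT, had levels of -0.54 and -0.62 (siRNA) and 0.08 and 0.21 (parental) in MIA PaCa-2, and of 0.90 and 0.95 against 0.69 and 0.56 in Capan-1. Its siRNA arrays lay below both parental arrays in MIA PaCa-2, where it fell (log2 change -0.73, limma adjusted p = 0.0146), and above both in Capan-1 (0.30, adjusted p = 0.239), a difference of -1.03 (adjusted p = 0.0984). CTH, which makes cysteine from cystathionine, had levels of 0.82 and 0.71 against 1.47 and 1.41 in MIA PaCa-2, and of 0.90 and 0.86 against 0.71 and 0.62 in Capan-1. CTH fell in MIA PaCa-2 (adjusted p = 0.0139), with a difference of -0.89 (adjusted p = 0.0984). CHAC1, which degrades glutathione, likewise fell in MIA PaCa-2 (log2 change -0.79, adjusted p = 0.0134), with a difference of -0.90 (adjusted p = 0.11) by its brightest probe and -0.65 by the second.

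Of 15 ATF4 targets in the fit, 13 had a difference below 0, and 10 were lower in MIA PaCa-2 at an unadjusted p under 0.05 (66.7%, against 5.85% of all genes) and 0 higher (6.53% of all genes). The median difference was -0.56, where the median change was -0.40 in MIA PaCa-2 against 0.11 in Capan-1. The 10 were SLC7A11, VLDLR (-1.02), CHAC1, CTH, DDIT4 (-0.68), the mitochondrial folate enzyme MTHFD2 (-0.66), PSAT1 (-0.60) and PHGDH (-0.47) of serine synthesis, TRIB3 (-0.56) and the asparagine synthetase ASNS (-0.52). Of these, MTHFD2, PSAT1 and PHGDH also fell in MIA PaCa-2 at the adjusted threshold. The 8 transcription factors of the stress response all lay below 0 with a median of -0.28, and NUPR1 (-0.84), ATF3 (-0.63), ATF4 itself (-0.52) and XBP1 (-0.38) were at an unadjusted p under 0.05. Other probes of ATF3 gave -0.27, 0.04 and -0.65. The 15 chaperone and degradation genes of the endoplasmic reticulum had a median of 0.01, with HERPUD1 lower (-0.41) and CRELD2 higher (0.34), and the chaperone HSPA5 had a difference of 0.03. Over the alternatives the median of the ATF4 targets relative to all genes ranged from -0.63 to -0.44.

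The promoters of ASNS and CHAC1 are printed because they alone of 13 ATF4 targets with an entry held the letters TGATGNAA (TTNCATCA on the other strand), a form of the element that ATF4 binds with C/EBP proteins, in the 250 bases before the start. These letters occurred in 1061 of the 27305 genes (3.89%). The matching letters are in capitals, 5′ to 3′ on the strand of the gene.
ASNS, chr7:97872409-97872658, minus strand: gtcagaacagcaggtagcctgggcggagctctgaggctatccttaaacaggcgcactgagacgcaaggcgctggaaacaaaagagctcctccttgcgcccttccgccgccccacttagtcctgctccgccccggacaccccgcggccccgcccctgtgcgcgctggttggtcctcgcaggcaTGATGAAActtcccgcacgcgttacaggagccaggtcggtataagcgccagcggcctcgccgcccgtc
CHAC1, chr15:40953221-40953470, plus strand: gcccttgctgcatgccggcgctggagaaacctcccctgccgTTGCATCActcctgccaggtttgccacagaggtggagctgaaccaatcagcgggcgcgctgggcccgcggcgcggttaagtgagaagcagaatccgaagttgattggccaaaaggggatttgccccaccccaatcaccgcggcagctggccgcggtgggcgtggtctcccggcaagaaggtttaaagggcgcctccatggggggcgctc

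The match began 68 bases before the start in ASNS and 209 bases before it, on the reverse strand, in CHAC1. A window without these letters shows only that they are absent from those bases. SLC7A11 has no entry.

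**Figure D4:**
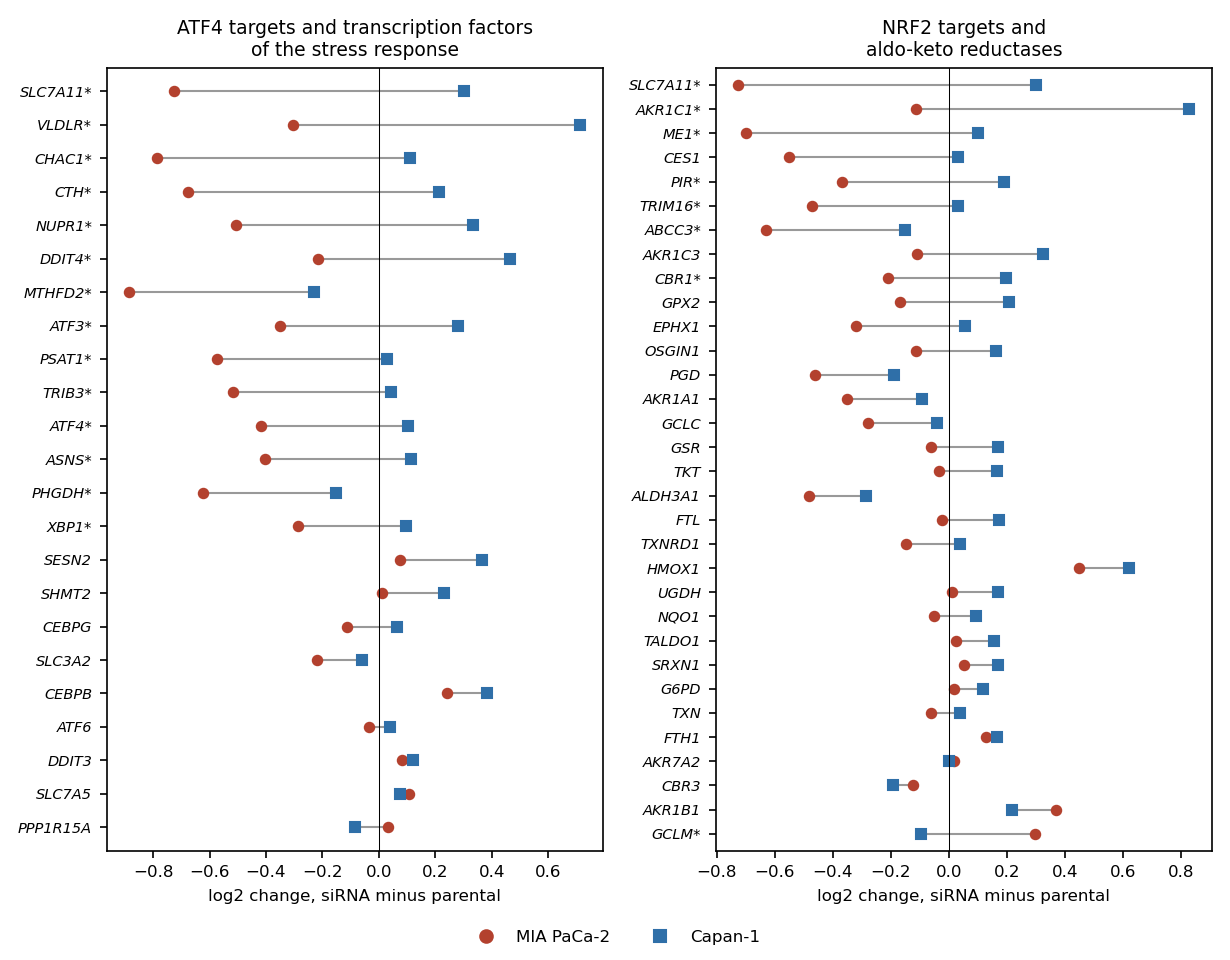
Log2 change after HOXB7 siRNA in MIA PaCa-2 (circles) and Capan-1 (squares), x axis, for ATF4 targets and transcription factors of the stress response (left) and for NRF2 targets with aldo-keto reductases (right), ordered by the difference, where a star marks an unadjusted p under 0.05. From SLC7A11 down to XBP1 the circle lies left of the square in each of the 14 starred genes, and GCLM at the foot of the right panel has the reverse order.

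The targets of NRF2 showed smaller differences of the same sign. Of 27 in the fit, 25 lay below 0, with a median of -0.20. At an unadjusted p under 0.05 (limma) 1 was higher (3.7%) and 6 lower (22.2%), against 6.53% and 5.85% of all genes. ME1, the malic enzyme that supplies NADPH, had levels of -0.87 and -0.94 (siRNA) and -0.29 and -0.12 (parental) in MIA PaCa-2, and of -0.38 and -0.39 against -0.52 and -0.45 in Capan-1. ME1 fell in MIA PaCa-2 (log2 change -0.70, limma adjusted p = 0.015), and its difference was -0.80 (adjusted p = 0.11). The other genes lower were SLC7A11, which is counted here too, PIR (-0.56), TRIM16 (-0.50), the exporter ABCC3 (-0.48) and the carbonyl reductase CBR1 (-0.40), and GCLM, a subunit of the enzyme that makes glutathione's precursor, was higher (0.39). The reductase AKR1C1 differed through Capan-1, with levels of 2.93 and 2.77 against 2.86 and 3.07 in MIA PaCa-2 and of 1.74 and 1.83 against 1.00 and 0.91 in Capan-1, a difference of -0.94 (adjusted p = 0.111). Transcripts of the AKR1C genes are alike, and its probes may not tell them apart. The letters TGACNNNGC (GCNNNGTCA on the other strand), the core of the element that NRF2 binds, lay in the 250 bases before the start of 7 of 18 targets with an entry (38.9%) and of 13.2% of all genes of the table. Among the regulators, BACH1, which represses NRF2 targets, rose in MIA PaCa-2 (log2 change 0.66, adjusted p = 0.0268) with a difference of 0.74, and KEAP1, which holds NRF2 for degradation, fell there (-0.40, adjusted p = 0.041) with a difference of -0.39.

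Genes of the large complexes had small differences, mostly below 0. Of 43 proteasome genes 39 lay below 0 with a median of -0.23, among them all 14 of the 20S core (median -0.26), but 3 (6.98%) were at an unadjusted p under 0.05, near the 5.85% of all genes. PSMA4 had a difference of -0.66, PSMB5 of -0.43 and PSMD9 of -0.31. In 12 of the 43 (27.9%) the siRNA arrays lay below both parental arrays in MIA PaCa-2 and above both in Capan-1, against 3.79% of all genes. The 75 subunits of oxidative phosphorylation had a median of -0.11 with 61 below 0 and 2 lower (2.67%) at an unadjusted p under 0.05, and the 77 cytosolic ribosomal protein genes had one of -0.05 with 55 below 0 and 0 at an unadjusted p under 0.05 (limma), a median that ranged over the settings from -0.13 to 0.02 relative to all genes. These genes are among the brightest, and when all genes were split into 10 classes of like size by level, the median difference ran from 0.10 in the dimmest class to -0.07 in the brightest, in which 65.2% of the genes lay below 0. The brightest class held 26 of the 43 proteasome, 67 of the 75 oxidative phosphorylation and 76 of the 77 ribosomal protein genes. The part of signal level in these medians was not tested.

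In the other direction stood genes of MAPK feedback and targets of YAP. Of 28 feedback and immediate early genes in the fit, 24 lay above 0, with a median of 0.22. At an unadjusted p under 0.05 (limma) 7 were higher (25%) and 0 lower, against 6.53% and 5.85% of all genes. DUSP5, a nuclear phosphatase of ERK, had levels of -1.58 and -1.58 (siRNA) and -2.98 and -2.68 (parental) in MIA PaCa-2, and of 1.92 and 2.08 against 1.63 and 1.58 in Capan-1. DUSP5 rose in MIA PaCa-2 (log2 change 1.25, limma adjusted p = 0.00821), and its difference was 0.86 (adjusted p = 0.144), or 0.31 with normexp background correction and quantile scaling together. The other 6 were EGR1 (0.47), DUSP2 (0.46), SPRY1 (0.43), DUSP6 (0.35), ETV1 (0.34) and FOSL2 (0.27), whereas FOS had 0.04. SPRY1 did not rise in MIA PaCa-2, with a log2 change of -0.08 there and -0.51 in Capan-1. Of 16 YAP and TEAD targets in the fit, of 24 listed, 14 lay above 0, at a median of 0.24. At that threshold 0 were lower and 6 higher (37.5%, against 6.53% of all genes). They were FJX1 (0.49), NT5E (0.45), WWC1 (0.43), MYOF (0.41), the receptor kinase AXL (0.34) and NUAK2 (0.33), while the classical targets CCN1 and CCN2 had 0.19 and 0.26 at an unadjusted p of 0.135 and 0.39.

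Epithelial and mesenchymal genes divided along the same line. The 13 epithelial markers in the fit had a median of -0.20, with 9 below 0 and 4 above. Relative to all genes that median ranged from -0.31 to -0.02 over the 22 settings. At an unadjusted p under 0.05 (limma) 0 were higher in MIA PaCa-2 (6.53% of all genes) and 4 lower (30.8%, against 5.85% of all genes). They were the desmosomal DSP (-0.59), the tight junction protein CLDN4 (-0.52), the splicing regulator ESRP1 (-0.65) and KRT19 (-0.30), and in all 4 the siRNA and parental arrays parted in opposite directions, in DSP of Capan-1 by less than the rounding of the values. DSP had levels of 0.28 and 0.31 (siRNA) and 0.72 and 0.89 (parental) in MIA PaCa-2 and fell there (log2 change -0.51, limma adjusted p = 0.0323), against 2.83 and 2.90 and parental levels of 2.83 and 2.73 in Capan-1. Of 9 mesenchymal markers in the fit, 7 lay above 0, and TGFBI (0.39) and AXL were at an unadjusted p under 0.05. EPCAM and CDH1 were not among the genes compared, being dim in MIA PaCa-2.

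Genes tied to the study's own question had small differences where both lines could be compared. The study asked what HOXB7 silencing does to proliferation, to apoptosis and to expression. A list of 14 genes named there was used, which leaves out HOXC8, also named there and given below. Of this list 9 genes were in the fit, and CXCL8 alone of these had an unadjusted p under 0.05 (limma). The difference was 0.29 for the cyclin CCND1, -0.17 for BAD, 0.11 for BAX, -0.10 for ARIH2, -0.08 for RB1, -0.09 for VEGFA, -0.06 for MMP9 and -0.05 for E2F1, none with an adjusted p under 0.48 (limma), and a second probe of VEGFA gave -0.37 (unadjusted p = 0.0346). FGF2, ANGPT2, MMP2 and BCL2 were not above background on all 8 arrays. One FGF2 probe was above background on the 4 MIA PaCa-2 arrays. It had levels of -4.40 and -4.75 (siRNA) and -2.41 and -2.43 (parental) there, a log2 change of -2.155. The other FGF2 probe was above background on the parental MIA PaCa-2 arrays only. Neither probe was above background in Capan-1, so the responses of FGF2 in the lines could not be compared. Of 43 S phase genes 3 were higher (6.98%), among them DTL (0.51) and UHRF1 (0.76), and 1 lower (2.33%) at an unadjusted p under 0.05 (limma, median 0.08). Of 54 G2/M genes 2 were higher (3.7%) and 3 lower (5.56%), with a median of -0.03. Over all genes 6.53% were higher and 5.85% lower. The proliferation marker MKI67 had a difference of 1.03 (unadjusted p = 0.00563) by its brightest probe and of 0.43 and 0.36 by its others, and the survivin gene BIRC5 fell in MIA PaCa-2 (log2 change -0.73, adjusted p = 0.0126) with a difference of -0.42. Among 25 HOX genes and cofactors in the fit, of 48 listed, 4 were higher (16%) and 4 lower (16%) at the same threshold. HOXC8 fell in MIA PaCa-2 (log2 change -1.34, limma adjusted p = 0.00692) and had a change of -0.79 in Capan-1 (adjusted p = 0.0745). Its difference was -0.55 (limma unadjusted p = 0.00659).

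Opposite movement was not the rule. Without overlap between siRNA and parental arrays in either line, 663 genes were higher in MIA PaCa-2 and lower in Capan-1 (4.01%) and 628 the reverse (3.79%), whereas 1721 were higher in both (10.4%) and 1919 lower in both (11.6%). The largest differences among the former included MAGI1, UACA (1.64), FCN1 (1.43) and STUM (1.52), and among the latter SNORA28 (-2.15), NMRAL2P and CCL5. SNORA28, a small nucleolar RNA, had levels of -2.21 and -2.21 (siRNA) and -0.61 and -0.94 (parental) in MIA PaCa-2 and of -1.80 and -1.87 against -2.07 and -3.04 in Capan-1, where the parental arrays lay further apart than the group means (adjusted p = 0.14).

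**Figure D5:**
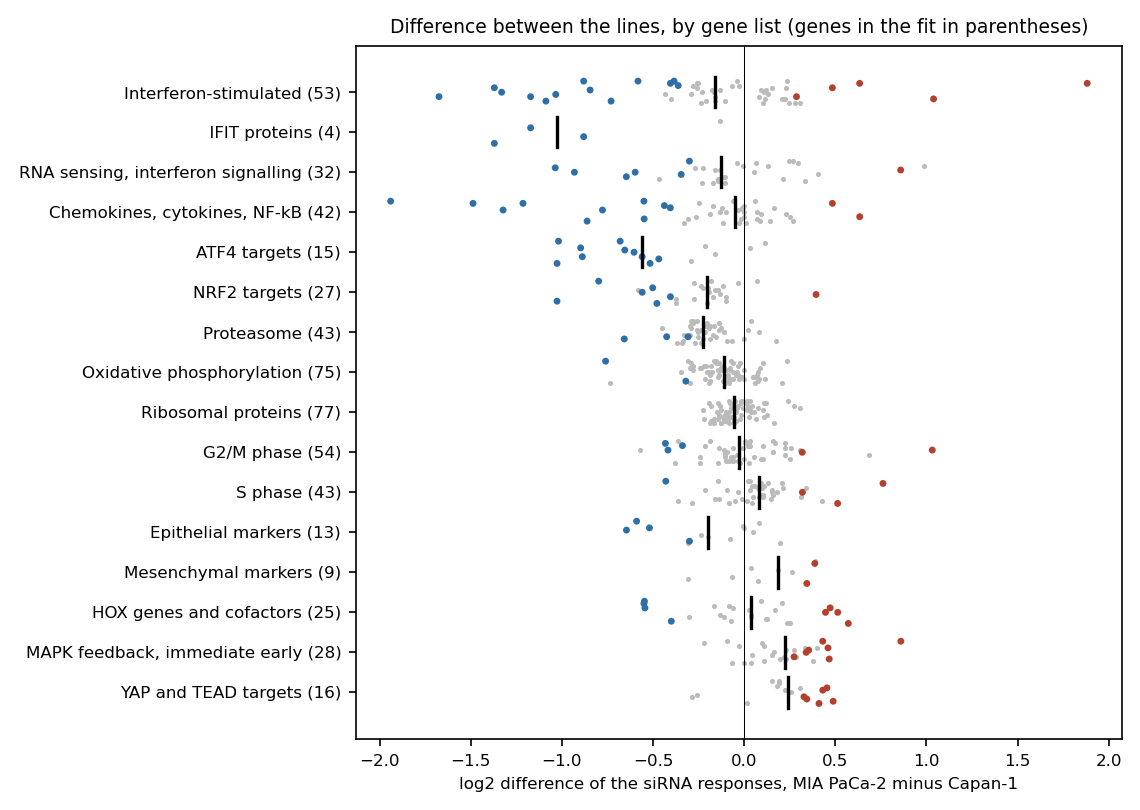
Difference between the responses (x axis, log2, MIA PaCa-2 minus Capan-1) of each gene in 16 lists or roles, with the median as a black bar, genes at an unadjusted p under 0.05 in blue (lower in MIA PaCa-2) or red (higher) and the others in gray. The IFIT genes and the ATF4 targets lie furthest left with medians of -1.03 and -0.56, and MAPK feedback genes and YAP targets lie right of 0 with medians of 0.22 and 0.24.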

How the data were processed

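RNA of both lines was labeled with Cy3 and hybridized to one-color arrays. The authors extracted the scans with Agilent Feature Extraction 9.5.3, which subtracted and detrended the background, and deposited the intensity of every spot with its flags. The deposited table of log2 values equals the log2 of these intensities, which leaves the arrays unscaled against each other.

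Spots without an outlier flag were averaged on the log2 scale and set against the 75th percentile of the array's gene probes. Probes were named through their accession (25104), symbol (1089), older symbol (435) or gene number (872) in RefSeq, and 6627 kept the name of the array. The 4 group means were estimated by lmFit and eBayes of limma 3.58.1 (R 4.3.3, prior degrees of freedom 2.83, residual degrees of freedom 4), and the difference of the 2 responses was tested two-sided with Benjamini-Hochberg adjustment over 20376 probes. With 2 arrays a group, the number of arrays limits the precision, and an exact permutation test of 1 gene within the lines cannot give a p under 0.0556. The R package data.table was version 1.17.8, and in Python 3.11.15 the versions were pandas 2.3.3, numpy 2.4.6, matplotlib 3.10.9 and scipy 1.17.1.

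The genes and the 24 lists were chosen with earlier results of these data known, so lists are described by counts and medians and not tested. A gene in a list is represented by its brightest probe. Named are the genes tied to the study's question, every gene past the adjusted threshold and the 12 with the smallest p in each direction, and genes drawn from the up to 6 per list with the smallest unadjusted p under 0.05 and from the 5 largest opposite responses in each direction, not all of which are printed. Further members of a list are named to complete a count, or, as FOS, HSPA5, CCN1 and CCN2, were chosen after their values were seen.

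In data simulated for this difference with 200 of 20376 probes changed, a change of 1 was recovered in 40% and one of 2 in 87%, and with nothing changed 0 probes were called. The alternatives were normexp background correction (offset 50) together with quantile scaling, the scaling alone, the outlier spots, the filter on dim probes, the prior, array weights, the replicate number as a block and each array left out.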

Additional observations from a re-analysis of the deposited data

Results flagged for a closer look

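The response to HOXB7 siRNA differed between the lines, by a direct limma test of the difference at an adjusted p under 0.05, in 7 genes. The log2 difference of MIA PaCa-2 minus Capan-1 was 1.88 for IFI27, 1.97 for LINC02817 and 1.34 for MAGI1, and it was -1.94 for CCL3, -1.37 for IFIT1, -1.69 for NMRAL2P and -1.33 for OASL. In OASL, NMRAL2P, MAGI1 and IFIT1 the siRNA arrays lay on opposite sides of the parental arrays in the lines. For IFIT1 the log2 change in MIA PaCa-2 was small (-0.15). The difference of MAGI1 was carried by 1 of its probes only. With 2 arrays in each group, single arrays could not be checked for outlying values.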

How the results depend on the processing

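Without the replicate block 3 genes were higher and 4 lower. With the replicate number as a block within each cell line 0 were higher and 0 lower (lowest limma adjusted p 0.317, with 1250 probes higher and 921 lower at an unadjusted p under 0.05), and with 1 block over both cell lines 0 and 0 (lowest adjusted p 0.0701, with 1403 and 1130). Over all probes, siRNA and parental arrays of like number had deviations correlated at 0.020 in MIA PaCa-2 and at 0.038 in Capan-1. With 2 arrays a group, arrays of unlike number give the same value with the sign turned. These values therefore cannot decide whether the numbers pair the samples. Quantile scaling gave 0 and 0. The filter of probes above background in at least 1 group gave 0 and 1 (25554 probes), with 0 of the 7 genes. No filter gave 0 and 0 (34127 probes, lowest limma adjusted p 0.0894). Normexp correction with quantile scaling gave 23 higher and 34 lower and an intensity trend in the spread 23 and 31, each with 6 of the 7 genes. No scaling gave 2 and 3 with 4 of the 7 and moved the median of all genes to -0.06, and array weights gave 4 and 3 with 6 of the 7. Leaving out 1 array at a time, with the lone array of its group assumed to vary like the others, gave between 0 and 37 higher and between 0 and 13 lower genes. The genes that passed also changed with the array left out, so that the 7 calls did not hold under each omission.

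All 7 genes kept their sign under the 22 settings, with a range of 1.30 to 1.98 for IFI27, 1.42 to 2.09 for LINC02817, 0.35 to 1.40 for MAGI1, -2.09 to -1.81 for CCL3, -1.43 to -1.31 for IFIT1, -1.82 to -0.59 for NMRAL2P and -1.39 to -1.25 for OASL. With normexp correction and quantile scaling together RSAD2 gave -0.81, CCL3L3 -0.71 and IFNL1 -0.38. With 1 array left out the difference turned sign in RB1 (-0.1537 to 0.0016, above 0 without MIA PaCa-2 siRNA replicate 2), VEGFA (-0.2488 to 0.0609, above 0 without Capan-1 siRNA replicate 1), MMP9 (-0.2264 to 0.1004, above 0 at 0.0065 without MIA PaCa-2 siRNA replicate 1 and at 0.1004 without Capan-1 siRNA replicate 2) and E2F1 (-0.118 to 0.0263, above 0 at 0.0263 without MIA PaCa-2 siRNA replicate 2 and at 0.025 without MIA PaCa-2 parental replicate 1). The cause of these changes was not tested. Relative to all genes the median ranged from -0.19 to -0.11 for interferon-stimulated genes, -1.48 to -0.71 for CC chemokines, -0.28 to -0.15 for NRF2 targets, 0.17 to 0.26 for MAPK feedback genes and 0.20 to 0.30 for YAP targets, and that of the ribosomal proteins from -0.13 to 0.02.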

Other observations

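The lists not described above are given beside all genes, of which, at an unadjusted p under 0.05 (limma), 5.85% had a lower response in MIA PaCa-2 and 6.53% a higher one. Of 30 p53 targets in the fit 4 were lower (13.3%) and 1 higher at that threshold, with a median of -0.07. Of 33 genes of the BCL2 family, caspases and IAP proteins 4 were lower (12.1%) and 1 higher, with a median of 0.00. The higher one of these, CASP10, had a difference of 0.53 by its brightest probe. Its other probes gave -0.56 (limma unadjusted p = 0.0032) and 0.31, so its direction is uncertain. PMAIP1, the BH3-only protein NOXA, had levels of 0.74 and 0.56 (siRNA) and 0.51 and 0.65 (parental) in MIA PaCa-2, and of 1.62 and 1.75 against 0.95 and 0.92 in Capan-1. It was separated in Capan-1 alone, with a difference of -0.68 (adjusted p = 0.17). The growth factor GDF15 had a difference of -0.43 and the p53-induced regulator BTG2 one of -0.74, and BTG2 fell in MIA PaCa-2 (log2 change -0.66, adjusted p = 0.0221).

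Glycolysis and hypoxia-induced genes had 6 lower (16.2%) and 2 higher (5.4%) of 37, with a median of -0.08. LDHA fell in MIA PaCa-2 (log2 change -0.43, adjusted p = 0.0426) with a difference of -0.48, and the hypoxia-induced lipase inhibitor ANGPTL4 had one of -0.55. Genes of cholesterol and fatty acid synthesis had 2 lower (5.56%) and 0 higher of 36, and the regulator SREBF1 had a difference of -0.73 by its brightest probe and 0.08 by the other. MHC class I and antigen processing genes had 2 lower (8.7%) and 1 higher of 23, the anaphase-promoting complex 2 lower (11.8%) and 0 higher of 17, chromatin remodelers 2 lower (4.17%) and 2 higher of 48, and the RNA silencing machinery 2 lower (13.3%) and 0 higher of 15. Of the latter, TARBP2, a partner of Dicer, had a difference of -0.30 and TNRC6A, a partner of Argonaute, one of -0.41.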
